A study of Bos taurus with 20 samples.

Results

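The miR-181 family was represented by 4 mature bovine miRNAs, bta-miR-181a, bta-miR-181b, bta-miR-181c and bta-miR-181d, which were taken by name from a table of 1029 miRNAs. The table held small RNA-seq of spermatozoa from 20 mature Holstein-Friesian bulls, of which 10 had high fertility (HF) and 10 had low fertility (LF) in artificial insemination, with 1 library per bull. HF and LF are labels from an adjusted field fertility score. No agent, allele or treatment differed between the groups by design, and the ages of single bulls were not used here. Frozen-thawed semen of several ejaculates of a bull was pooled, and somatic cells were lysed before RNA extraction in both groups, and a value therefore averages the ejaculates of its bull. Values are normalized counts, which are reads relative to all reads on miRNAs in the library (on the scale of CPM) after TMM scaling (trimmed mean of M-values, an adjustment for libraries dominated by a few abundant RNAs).

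miRNAs are short RNAs that guide Argonaute proteins to messenger RNAs, mainly through a few bases near their 5′ end called the seed. The miR-181 family shares a single seed, so its members are expected to bind overlapping sets of messengers, and they differ elsewhere in the mature sequence. miR-181a is best known in lymphocytes, where it tunes the response of developing T cells to antigen. In the bovine annotation (RefSeq, ARS-UCD2.0, used for names and neighbours only) the 4 members matched 6 genes. MIR181C and MIR181D are neighbours and both lie within NANOS3, which encodes an RNA-binding protein of germ cells. bta-miR-181a and bta-miR-181b each have 2 genes in 2 clusters, 1 of each. MIR181A-2 and MIR181B-2 lie within NR6A1, which encodes the germ cell nuclear factor, and within a long non-coding RNA gene, whereas MIR181A-1 and MIR181B-1 lie in no other annotated gene. Containing genes were found by position only, and strand was not compared. Both genes of a member give the same mature miRNA name, so their contributions were not separated.

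The libraries held between 103204 and 3097581 reads on miRNAs in HF bulls (median 1092881) and between 310186 and 1640178 in LF bulls (median 1085742). HF replicate 17 and LF replicate 11 were the shallowest of their groups. A floor of 3 reads equals a normalized count of 27.6 in HF replicate 17, 9.27 in LF replicate 11 and at most 5.79 in the other libraries. Such floors cover counting error only, since reads amplified by PCR are not independent molecules. The male germ line was well represented: all 6 germ line miRNAs of the marker list were detected in every library, led by bta-miR-34c at 35783 normalized counts ± 8657 (SD, n = 20 bulls) and bta-miR-449a at 8146 ± 2433, both related miRNAs known for high levels in spermatogenic cells.

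All 4 miR-181 members were detected, and all passed the filter that left 435 miRNAs for testing (miRNAs below a normalized count of 1 in 10 or more of the bulls were removed). bta-miR-181d and bta-miR-181a were present at nearly equal means, 79.6 ± 30.9 and 78.6 ± 17.5 (SD, n = 20 bulls), and ranked 170 and 171 among the 1029 miRNAs. bta-miR-181c followed at 39.0 ± 9.81 (rank 211) and bta-miR-181b at 11.5 ± 6.32 (rank 300). These levels rest on few reads. Over all libraries 1844 reads were counted for bta-miR-181d, 1688 for bta-miR-181a, 906 for bta-miR-181c and 250 for bta-miR-181b. bta-miR-181a, bta-miR-181c and bta-miR-181d had reads in all 20 bulls and bta-miR-181b in 19.

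The order of the members was tested within each library, on the log2 difference of normalized counts with 1 added, by a two-sided sign-flip permutation test. bta-miR-181a exceeded bta-miR-181c in 20 of 20 bulls, by 1.00 ± 0.57 on the log2 scale (SD, n = 20 bulls; p = 1e-05, adjusted over 3 steps 1.5e-05). bta-miR-181c exceeded bta-miR-181b in 20 of 20 bulls, by 1.91 ± 1.25 (p = 1e-05, adjusted 1.5e-05). Both of these p-values are the smallest that the permutations can give. The order is one of counted reads, since how well each sequence is captured in library preparation was not measured. The leading pair did not differ beyond the spread between bulls: the log2 difference of bta-miR-181d over bta-miR-181a was -0.05 ± 0.74 (p = 0.780, adjusted 0.780), with bta-miR-181d higher in 8 bulls and bta-miR-181a in 12. The difference ran from -1.45 to 1.27 between bulls.

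**Figure D1:**
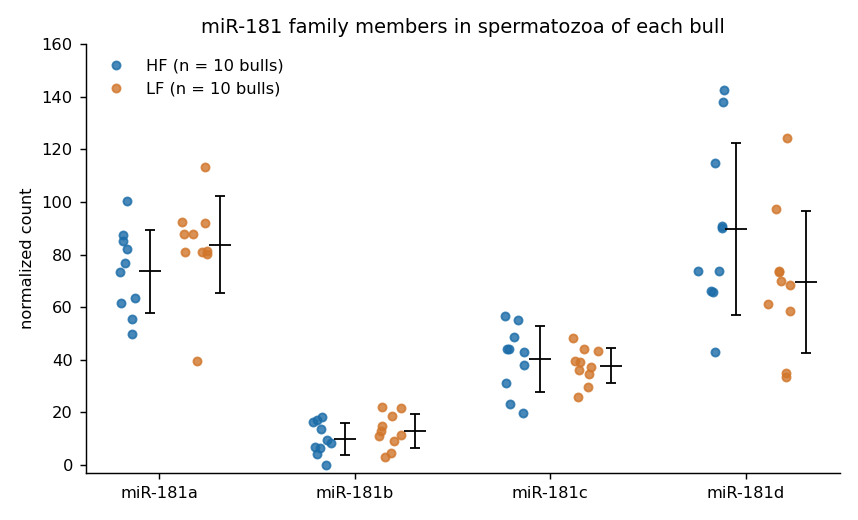
Normalized counts of the 4 miR-181 members (linear axis), with 1 point per bull, HF in blue and LF in orange, and black bars for the mean ± SD of 10 bulls. HF and LF points overlap for each member, and bta-miR-181d has the widest spread, from 33.3 to 142.

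bta-miR-181a, the member known from lymphocyte development, ran from 49.8 (HF replicate 2) through a median of 75.2 to 100.4 (HF replicate 9) in HF bulls. In LF bulls it ran from 39.7 (LF replicate 1) through a median of 84.5 to 113 (LF replicate 7). The groups overlapped, and the other 9 LF bulls lay at 80.3 or above. The mean was 73.6 ± 15.8 in HF and 83.7 ± 18.4 in LF (SD, n = 10 bulls each), and 3 of 10 HF bulls were above the LF median.

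bta-miR-181b, encoded beside bta-miR-181a, was the rarest member. It ran from 0 (HF replicate 17) through a median of 8.89 to 18.4 (HF replicate 6) in HF bulls. It ran from 3.09 (LF replicate 11) through a median of 12.1 to 22.1 (LF replicate 7) in LF bulls, so the groups overlapped and the lowest value of each was in its shallowest library. The 0 in HF replicate 17 allows up to 27.6 normalized counts at that depth, which is above the highest value of bta-miR-181b measured in any bull. Group means were 10.1 ± 6.08 in HF and 12.9 ± 6.54 in LF (SD, n = 10 bulls each), with 4 of 10 HF bulls above the LF median.

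bta-miR-181c ran from 19.9 (HF replicate 6) through a median of 43.4 to 56.7 (HF replicate 3) in HF bulls and from 25.7 (LF replicate 13) through a median of 38.1 to 48.1 (LF replicate 18) in LF bulls. The LF values lay wholly within the range of the HF values. Means were 40.4 ± 12.4 in HF and 37.7 ± 6.69 in LF (SD, n = 10 bulls each).

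bta-miR-181d, encoded beside bta-miR-181c, ran from 42.9 (HF replicate 3) through a median of 81.8 to 142 (HF replicate 10) in HF bulls. In LF bulls it ran from 33.3 (LF replicate 18) through a median of 69.1 to 124 (LF replicate 7). The second highest HF value, 138 in HF replicate 17, rests on 15 reads. The groups overlapped, with 7 of 10 HF bulls above the LF median and means of 89.8 ± 32.6 in HF and 69.5 ± 26.9 in LF (SD, n = 10 bulls each).

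The comparison of HF with LF asks whether the sperm level of a miRNA goes with the field fertility of the bull. In a limma fit across all 435 tested miRNAs, with Benjamini-Hochberg adjustment, no member of the family passed either of the thresholds used. The thresholds of the study are an unadjusted p-value under 0.05 together with a fold change over 1.5, and 0 of the 4 members passed them, against 9 of 435 miRNAs (2.07%). An adjusted p-value under 0.05 was reached by 0 members and by 0 of 435 miRNAs (0%), with 15 of the 435 and 0 of the members at an unadjusted p-value under 0.05. edgeR's likelihood ratio test on recovered reads called 12 of 435 (2.76%) at the study's thresholds and 0 of the members. The edgeR quasi-likelihood test called 13 and DESeq2 called 11, again with 0 members, and 0 members had an unadjusted p-value under 0.05 in any of these tests. In bulk RNA, less of a miRNA per spermatozoon and fewer cells that carry it cannot be told apart.

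The log2 fold change of HF over LF (on the log2 scale of the normalized count plus 1) had the smallest p-value for bta-miR-181d, at 0.38 (SE 0.25, 95% interval -0.13 to 0.89; limma p = 0.139, adjusted 0.942). This was the 51st smallest p-value of the 435. bta-miR-181b had a log2 fold change of -0.49 (SE 0.45, 95% interval -1.41 to 0.44; limma p = 0.290, adjusted 0.957), and of -0.35, -0.34 and -0.38 in edgeR's likelihood ratio test, edgeR's quasi-likelihood test and DESeq2 on recovered reads. It was -0.14 without HF replicate 17 and -0.66 without LF replicate 11. bta-miR-181a had -0.17 (SE 0.19, 95% interval -0.56 to 0.21; limma p = 0.357, adjusted 0.957). bta-miR-181c had 0.05 (SE 0.21, 95% interval -0.38 to 0.47; limma p = 0.818, adjusted 0.979), and its sign turned negative, at -0.01, when libraries were scaled by their totals only. The intervals bound the difference most tightly for bta-miR-181a and least for bta-miR-181b, which has the fewest reads.

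**Figure D2:**
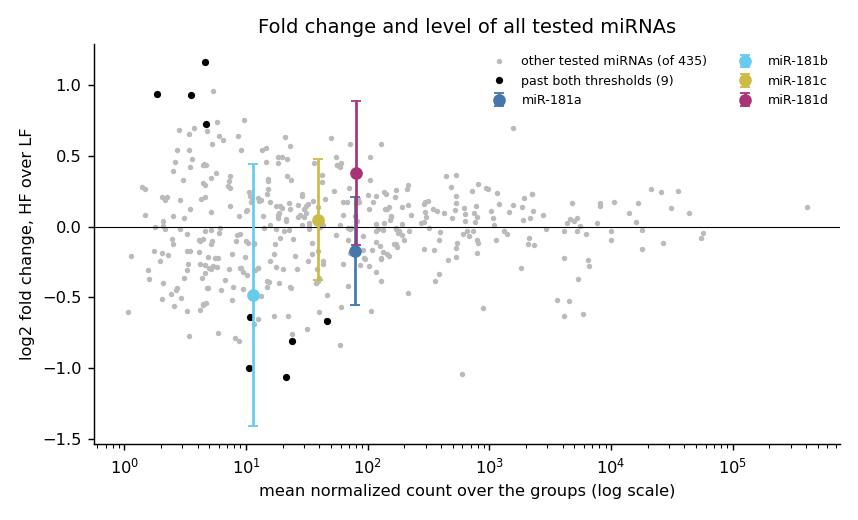
Log2 fold change of HF over LF against the mean normalized count (log axis) for the 435 tested miRNAs, with the 4 miR-181 members in colour with 95% intervals from limma and the 9 miRNAs past both thresholds in black. The intervals of all 4 members cross 0, and bta-miR-181b has the widest.

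Spread between bulls was described for each member and was not tested between members. The coefficient of variation (SD over mean, 20 bulls) was 22.2% for bta-miR-181a, against 13.9% from read counting alone, which leaves out variation from library preparation and PCR. It was 25.1% for bta-miR-181c, with 20.3% from counting alone. bta-miR-181d varied by 38.8%, against 14.7% from counting, and bta-miR-181b by 55.1%, against 30.7%. The counting part was estimated from the observed values, so the 0 of bta-miR-181b in HF replicate 17 added nothing to it. At 9.19 normalized counts per read, that library weighed most in the counting part of the other members. Among the 435 tested miRNAs the median coefficient was 48.0%, and 394 of them varied more than bta-miR-181a, 372 more than bta-miR-181c, 271 more than bta-miR-181d and 172 more than bta-miR-181b.

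The summed level of the family had a coefficient of variation of 16.2%, where members that varied independently with the same SDs would give 17.9%. The sum was 214 ± 29.1 normalized counts in HF and 204 ± 39.0 in LF bulls (SD, n = 10 each), with a range over all bulls of 153 to 299. This was 0.0211% ± 0.00383 of all normalized counts in HF and 0.0208% ± 0.00354 in LF bulls. bta-miR-181d took from 17.6% (LF replicate 18) to 56.3% (HF replicate 10) of the family, and bta-miR-181a from 22.3% (LF replicate 1) to 53.0% (LF replicate 13). On average bta-miR-181a made up 38.1%, bta-miR-181d 37.4%, bta-miR-181c 19.0% and bta-miR-181b 5.54% of the normalized counts of the family.

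**Figure D3:**
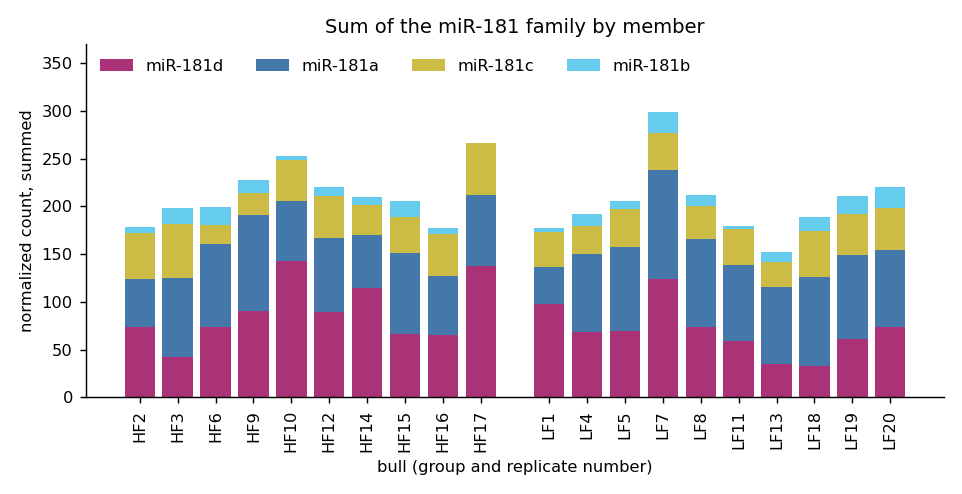
Normalized counts of the miR-181 members stacked for each bull (axis from 0), with bulls named by group and replicate number. The stacks range from 153 (LF13) to 299 (LF7), and the bta-miR-181d part is the largest in 6 HF and 2 LF bulls.

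bta-miR-181d was the highest member in 6 HF and 2 LF bulls, and bta-miR-181a in 4 HF and 8 LF bulls. As a share of the family, bta-miR-181d averaged 41.2% ± 10.7 in HF and 33.6% ± 10.1 in LF bulls, and bta-miR-181a 34.7% ± 7.57 and 41.4% ± 8.22 (SD, n = 10 each). Ratios between members were taken within a library, where its scaling cancels except for the 1 added to each value, and they were compared between groups by two-sided permutation tests. The log2 ratio of bta-miR-181d to bta-miR-181a, which was chosen after the levels were seen, was 0.23 ± 0.67 in HF and -0.32 ± 0.74 in LF bulls, a difference of 0.55 (p = 0.0976, adjusted over 4 ratios 0.390). It lay above the LF median in 8 of 10 HF bulls. Leaving out 1 bull at a time gave p-values from 0.0168 (without LF replicate 1, difference 0.73) to 0.181, with 0.0390 without HF replicate 3 (difference 0.68) as the only other value under 0.05.

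The 3 other ratios differed less between the groups. bta-miR-181d to bta-miR-181c, the NANOS3 pair, had a log2 ratio of 1.12 ± 0.75 in HF and 0.79 ± 0.61 in LF bulls (difference 0.33, permutation p = 0.295, adjusted over these 3 ratios 0.554). bta-miR-181c to bta-miR-181a stood at -0.89 ± 0.69 and -1.11 ± 0.43 (difference 0.22, permutation p = 0.396, adjusted 0.554). bta-miR-181b to bta-miR-181a stood at -3.06 ± 1.195 and -2.75 ± 0.67 (difference -0.31, permutation p = 0.554, adjusted 0.554). Without HF replicate 17, which had no read of bta-miR-181b, this last difference was 0.04, and with 1 read added to recovered reads in place of a normalized count of 1 it was -0.09. With 1 bull left out, the difference ran from 0.18 (without LF replicate 18) to 0.50 (without HF replicate 3) for bta-miR-181d to bta-miR-181c and from 0.13 (without HF replicate 2) to 0.35 (without HF replicate 6) for bta-miR-181c to bta-miR-181a, with permutation p-values of 0.0826 or more.

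Whether members encoded side by side rise and fall together between bulls was asked with correlations of log2 levels over the 20 bulls, with permutation p-values adjusted over the 6 pairs. bta-miR-181a and bta-miR-181b, which share both of their clusters, had Spearman's rho of 0.73 (p = 0.00043, adjusted 0.00258) and Pearson's r of 0.47 (p = 0.0402, adjusted 0.205). Without the 2 bulls farthest from the median of bta-miR-181a, r was 0.48 (p = 0.0499). Within HF bulls rho was 0.70 (p = 0.0299) and r 0.35, and within LF bulls rho was 0.68 (p = 0.0351) and r 0.60 (permutation tests, n = 10 each). Without both shallowest libraries r was 0.79 (adjusted p = 0.00054). The relation depended on the scaling of the libraries: rho was 0.58 (adjusted permutation p = 0.05004) with scaling by library totals and 0.48 (adjusted permutation p = 0.202) with DESeq2 size factors.

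bta-miR-181c and bta-miR-181d, the pair within NANOS3, showed no such relation, with r of 0.01 (p = 0.967, adjusted 0.967) and rho of -0.11 (p = 0.630, adjusted 0.630; permutation tests). Without the 2 bulls farthest from the median of bta-miR-181c, r was 0.09 (p = 0.731). Within HF bulls r was -0.08 and rho -0.21, and within LF bulls r was 0.10 and rho -0.10. Whether this pair differs from bta-miR-181a with bta-miR-181b in the strength of its relation was not tested. The 4 pairs across clusters had r between -0.42 and -0.18, the lowest for bta-miR-181b with bta-miR-181d (permutation p = 0.0684, adjusted 0.205).

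**Figure D4:**
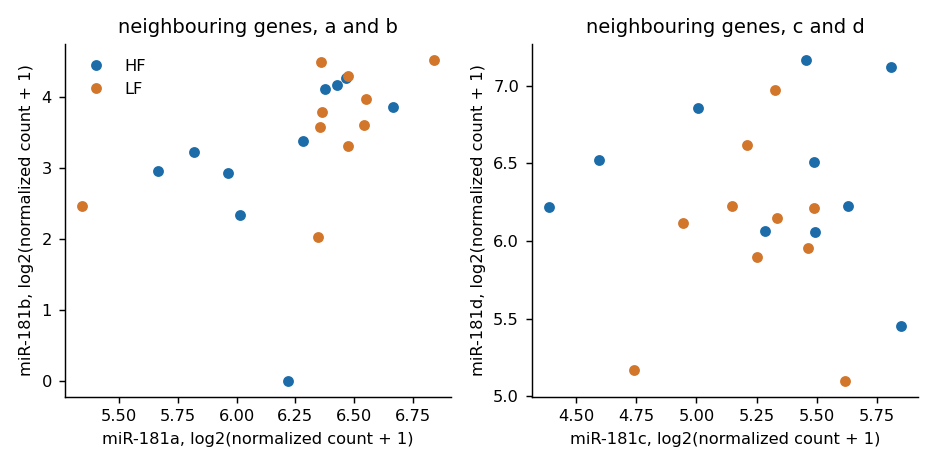
Levels of members encoded side by side, bta-miR-181b against bta-miR-181a (left) and bta-miR-181d against bta-miR-181c (right), both as log2(normalized count + 1), with 1 point per bull, HF in blue and LF in orange. On the left most points rise together (rho of 0.73) and the point at 0 is HF replicate 17, and on the right they scatter (rho of -0.11).

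Library depth moved with bta-miR-181a, bta-miR-181b and bta-miR-181c once the shallowest libraries were set aside. Over all 20 bulls, correlations of log2 level with log2 reads were -0.31 for bta-miR-181a, 0.42 for bta-miR-181b, 0.12 for bta-miR-181c and 0.06 for bta-miR-181d (Pearson, permutation p-values adjusted over 4 from 0.274 to 0.814). Spearman's rho was -0.35, -0.16, 0.28 and 0.26 in the same order (adjusted permutation p-values from 0.345 to 0.507). Without the 2 libraries farthest from the median depth, HF replicate 17 and LF replicate 11, r was -0.51 for bta-miR-181a (permutation p = 0.0309, adjusted 0.0412) and -0.56 for bta-miR-181b (p = 0.0158, adjusted 0.0316). It was 0.59 for bta-miR-181c (permutation p = 0.0104, adjusted 0.0316) and 0.45 for bta-miR-181d (p = 0.0592, adjusted 0.0592). In these 18 libraries, bta-miR-181a and bta-miR-181b were thus lower, and bta-miR-181c higher, where more reads were counted. With depth removed by a linear fit in the same 18 libraries, bta-miR-181a and bta-miR-181b still had a positive relation (r = 0.70, adjusted permutation p = 0.00516; rho = 0.58, adjusted 0.0414), whereas bta-miR-181c and bta-miR-181d had r of -0.54 (adjusted 0.0576) and rho of -0.55 (adjusted 0.0414). In the same fit bta-miR-181b and bta-miR-181c, which lie in different clusters, had rho of 0.56 (adjusted permutation p = 0.0414) and r of 0.31 (adjusted 0.428), against rho of -0.12 in all 20 bulls. With depth as a covariate in limma, 0 of the 4 members passed the thresholds.

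**Figure D5:**
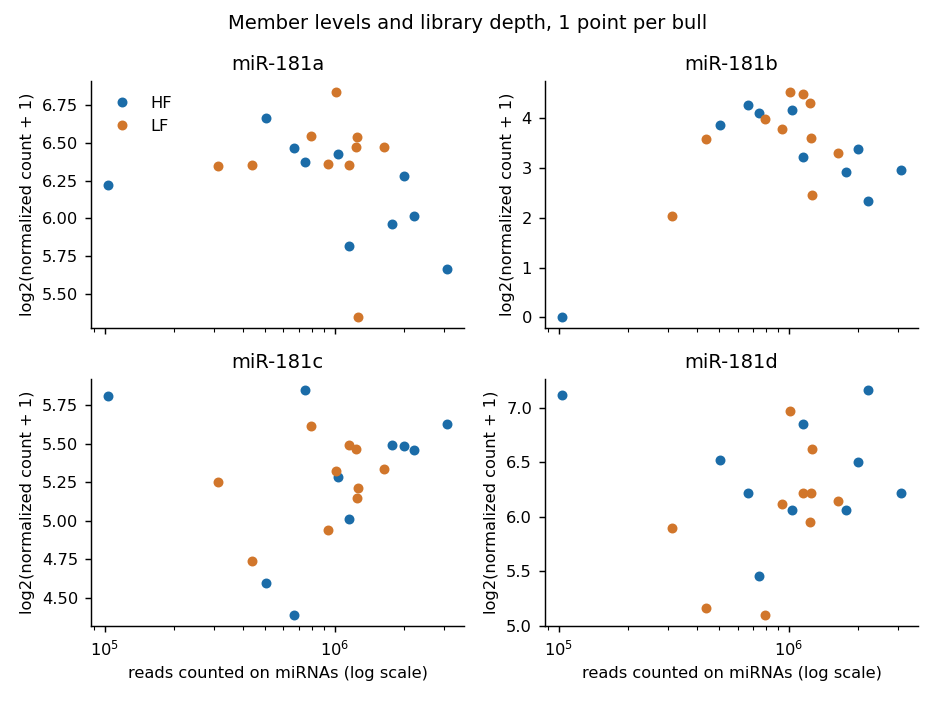
Level of each miR-181 member, as log2(normalized count + 1), against the reads counted on miRNAs in the library (log axis), with 1 point per bull, HF in blue and LF in orange. Right of the 2 shallowest libraries, bta-miR-181a and bta-miR-181b fall with depth (r of -0.51 and -0.56) and bta-miR-181c rises (r of 0.59).

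The miRNAs most like the leading members were found by Pearson's r of log2 levels over the 20 bulls among the 434 other tested miRNAs, as a description, since all points share libraries and depth. Nearest to bta-miR-181d were bta-miR-2285ad (r = 0.80), bta-miR-2285u (0.76), bta-miR-2285ba (0.74), bta-miR-2435 (0.72) and bta-miR-2285k (0.70), and 4 of these 5 belong to the large bovine miR-2285 family, which makes up 80 of the 435 tested miRNAs (18.4%). The neighbour of bta-miR-181d in the genome, bta-miR-181c, came at place 206. Nearest to bta-miR-181a were bta-miR-507-3p and bta-miR-507b (both 0.71), bta-miR-92a (0.63), bta-miR-2312 (0.61) and bta-miR-423-5p (0.57), with bta-miR-181b at place 10. Without both shallowest libraries these 10 correlations lay between 0.58 and 0.79. Spearman's rho with bta-miR-181a was only 0.27 for bta-miR-2312, which had a median of 6 reads, and lay between 0.56 and 0.69 for the other miRNAs named as nearest to bta-miR-181a.

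MIR181C and MIR181D lie next to MIR23A, MIR27A and MIR24-2, a cluster of widely expressed miRNAs. Its products were counted at higher levels, with bta-miR-23a at 534 ± 179, bta-miR-27a-3p at 26518 ± 6463 and bta-miR-24-3p at 1330 ± 241 normalized counts (SD, n = 20 bulls). These 3 were chosen by position, not by the rule for named miRNAs, and bta-miR-24-3p can also come from another gene.

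Marker miRNAs of other cells that semen can hold were summed per bull, since miR-181a is also a miRNA of lymphocytes. In the paper, RT-PCR of sperm RNA amplified no marker transcript of leukocytes, epithelial cells or germ cells other than spermatozoa. Red cells, muscle and stroma were not among the targets of that RT-PCR. Of the leukocyte list 8 miRNAs were tested, and 1 passed the study's thresholds, bta-miR-155, which was lower in HF (log2 fold change -0.998, limma p = 0.00335, adjusted 0.921). The list did not move in 1 direction: 5 of the 8 had a log2 fold change below 0, with a range from -0.998 to 0.63 and a median of -0.26. bta-miR-146a had a log2 fold change of -0.52 (limma p = 0.0368, adjusted 0.942), and in the red cell list bta-miR-486 had 0.57 (limma p = 0.0444, adjusted 0.942), just under the fold threshold. These 3 are also calls that the study made on these samples. The leukocyte sum ran from 2565 to 9688 (median 4572) in HF and from 3253 to 11202 (median 6454) in LF bulls, mostly from bta-miR-146a and bta-miR-146b. bta-miR-223, which is typical of neutrophils and monocytes, averaged 2.02 normalized counts and was at 0 in 4 libraries. The epithelial sum, led by bta-miR-200a at 6567 and bta-miR-200b at 4118, ran from 6544 to 13138 (median 10263) in HF and from 9680 to 15554 (median 11875) in LF bulls, and 0 of its 6 miRNAs passed the thresholds. All 6 had a log2 fold change below 0, from -0.47 to -0.23 with a median of -0.40, against a median of 0.01 over all 435 tested miRNAs. They come from the same bulls and are not independent, and the direction of the list as a whole was not tested. Of these 6, bta-miR-429 (limma p = 0.0135, adjusted 0.942) and bta-miR-200a (limma p = 0.0402, adjusted 0.942) had an unadjusted p-value under 0.05. The red cell sum ran from 21.7 to 100.4 in HF and from 20.0 to 82.7 in LF bulls, with bta-miR-144 at 0 in 15 libraries. The muscle and stroma sum ran from 193 to 2008 in HF and from 279 to 2417 in LF bulls. The germ line sum ran from 32157 to 77257 in HF and from 25856 to 54756 in LF bulls, and 0 of the tested miRNAs of these last 3 lists (2, 8 and 6) passed the thresholds.

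Over the 20 relations of the 4 members with these 5 sums, 0 had an adjusted permutation p-value under 0.05 by Pearson's r or Spearman's rho, with 2 Pearson and 3 Spearman p-values under 0.05 before adjustment. bta-miR-181b and the epithelial sum had the lowest p-value (r = 0.66, permutation p = 0.00298, adjusted 0.0596; rho = 0.44, adjusted 0.281), and r was 0.42 without the 2 bulls farthest from the median of that sum. bta-miR-181c and the germ line sum had r of 0.46 (permutation p = 0.0432, adjusted 0.432) and rho of 0.53 (adjusted 0.281), with r of 0.50 without the 2 farthest bulls. By Spearman alone, the epithelial sum had rho of 0.50 with bta-miR-181a (permutation p = 0.0284, adjusted 0.281; r = 0.36) and -0.45 with bta-miR-181c (p = 0.0464, adjusted 0.281; r = -0.39). The leukocyte sum had r of 0.29 with bta-miR-181a and -0.34 with bta-miR-181d (adjusted permutation p = 0.700 and 0.564). What part these cells had in the member levels was not tested.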

How the data were processed

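Small RNA libraries of spermatozoa from 20 bulls were used, with groups taken from the labels. According to the methods of the study, adapters and other small RNAs were removed, reads were aligned with Bowtie to ARS-UCD1.2 plus a Y chromosome, and reads were counted on the mature miRNAs of miRBase with miRDeep2. The submitters' processing notes also name FastQC 0.11.8, cutadapt 2.6, R 3.4 and edgeR 3.5. The deposited values give a signal for each miRNA in each library, made of counts scaled by the authors to the library size and a TMM factor, although the table is described as counts.

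Reads were recovered by dividing each library by its commonest low value. Of the values above 0, 95.0% came out whole within 0.02, and 0 values of the 4 members did not. In several libraries the smallest value was below the step used, at 0.5 of it or, in LF replicate 1, 0.25. In HF replicate 6 it was 0.667 of the step. In LF replicate 18 the commonest low value was a tie, of which the smaller was taken. Reads and depth of these libraries are less certain. 0 columns had no sample, 0 pairs of libraries were identical, and total reads, floors and precision are given with the results.

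HF was compared with LF by limma 3.58.1 (variance trend, R 4.3.3) on log2(normalized count + 1) over the 435 miRNAs that were not under 1 in at least 10 bulls, with Benjamini-Hochberg adjustment and no covariates. Recovered reads were tested with edgeR 4.0.16 and DESeq2 1.42.0. Ratios, orders and correlations were tested by permutation (two-sided, 100000 resamples, in numpy 2.4.6). The fits and permutation tests were tested on simulated data. Alternatives changed the test, scaling, pseudocount, filter, depth term and bulls included. The ratio of bta-miR-181d to bta-miR-181a, the fits without both shallowest libraries, the removal of depth and the correlations with marker sums were added after values were seen.

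The members and marker lists were chosen with earlier results of these data known. Named miRNAs are the members, the 5 most correlated with each of the most abundant pair, up to 4 of each marker list by mean level and those that share the family's seed, which were not looked for as mature sequences were not used here. bta-miR-155, bta-miR-223, bta-miR-144 and the neighbours of MIR181D were named outside this rule after their values were seen. No batch is given in the labels used here. The mRNA libraries were not analysed here.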

Additional observations from a re-analysis of the deposited data

Results flagged for a closer look

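In each group of 10 bulls, the distance of the most extreme bull from its nearest neighbour was compared with the whole range of the group (Dixon's ratio at its 95% critical value). Of 18 sets of values tested for the miR-181 family, 5 exceeded it, where chance gives about 1 in 20 for a single set. The sets reuse the same values as levels, shares and ratios and are not independent, so their number cannot show an excess over that rate. In LF replicate 1, bta-miR-181a was at 39.7 normalized counts, with the next LF bull at 80.3 (ratio 0.552). The same bull had the highest LF log2 ratio of bta-miR-181c to bta-miR-181a, at -0.13, with the next at -0.87 (ratio 0.495). In LF replicate 7 the family made up 0.0294% of all normalized counts, against 0.0220% in the next LF bull (ratio 0.532). The log2 ratio of bta-miR-181b to bta-miR-181a was -6.22 in HF replicate 17, the shallowest library, with 0 reads of bta-miR-181b and 8 of bta-miR-181a (next bull -3.68, ratio 0.630). It was -4.31 in LF replicate 11, the shallowest LF library, with 1 read of bta-miR-181b and 26 of bta-miR-181a (next bull -3.16, ratio 0.472). The value in HF replicate 17 is set by the 1 added to each normalized count, and the value in LF replicate 11 rests on its 1 read of bta-miR-181b. With 1 read added to recovered reads instead, the ratio was -3.17 in HF replicate 17, above the lowest HF bull at -3.82, and -3.75 in LF replicate 11, and the lowest bull of neither group stood apart (gap over range 0.391 and 0.289).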

How the results depend on the processing

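Depth limits the precision: bta-miR-181b had at most 25 reads in any library, and its log2 fold change has the largest SE of the members. bta-miR-181b could not be tested with the filter of at least 10 in every bull. In the alternatives other than leaving out 1 bull, log2 fold changes ranged from -0.24 to -0.16 for bta-miR-181a, from -0.58 to -0.28 for bta-miR-181b and from 0.28 to 0.38 for bta-miR-181d, and 0 members passed the thresholds. Of 144 values under other settings 127 kept their direction and side of the threshold, and of 500 values with 1 bull left out 486 did. No paired analysis of HF with LF was possible because each bull belonged to 1 group only and the labels give no pairing of bulls. The cause was not tested for any of the changes that follow.

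The HF minus LF difference in log2 ratio of bta-miR-181b to bta-miR-181a ran from -0.40 to -0.09 between pseudocounts. With scaling by library totals, bta-miR-181c had a log2 fold change of -0.012, r of bta-miR-181c with bta-miR-181d was -0.12, rho of bta-miR-181b with bta-miR-181c was 0.0015, and rho of bta-miR-181a with bta-miR-181b was 0.58. With DESeq2 size factors r of bta-miR-181c with bta-miR-181d was -0.0093 and rho of bta-miR-181a with bta-miR-181b was 0.48. Without both shallowest libraries the log2 fold change of bta-miR-181c was -0.0089, r of bta-miR-181c with bta-miR-181d was -0.13 and r of bta-miR-181a with bta-miR-181b was 0.79. With depth removed as well, r was 0.70 for bta-miR-181a with bta-miR-181b, 0.17 for bta-miR-181a with bta-miR-181c, 0.31 for bta-miR-181b with bta-miR-181c and -0.54 for bta-miR-181c with bta-miR-181d. The matching rho was 0.31 for bta-miR-181a with bta-miR-181c, 0.063 for bta-miR-181a with bta-miR-181d, 0.56 for bta-miR-181b with bta-miR-181c and -0.55 for bta-miR-181c with bta-miR-181d.

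With 1 bull left out, log2 fold changes ranged from -0.29 to -0.12 for bta-miR-181a, from -0.66 to -0.14 for bta-miR-181b and from 0.27 to 0.48 for bta-miR-181d. The log2 difference of bta-miR-181d over bta-miR-181a ranged from -0.12 to 0.027, and the log2 fold change of bta-miR-181c from -0.013 to 0.15. The HF minus LF difference in log2 ratio ranged from -0.48 to 0.039 for bta-miR-181b to bta-miR-181a and from 0.43 to 0.73 for bta-miR-181d to bta-miR-181a. r ranged from 0.42 to 0.66 for bta-miR-181a with bta-miR-181b (highest without HF replicate 17) and from -0.16 to 0.14 for bta-miR-181c with bta-miR-181d, and rho from -0.22 to 0 for bta-miR-181b with bta-miR-181c.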
